A study of Mus musculus with 6 samples.

Results

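The genes described here are 49 genes that carry out DNA replication or control entry into S phase, measured by RNA sequencing in mouse colonic organoids. They were chosen by gene symbol from 25067 rows, and all 49 had a mean normalized count of at least 10 and entered the comparison, among 13210 rows that did so. By role, 12 of them license replication origins, 8 fire the origins, 8 are subunits of the replicative polymerases and primase, 6 form the sliding clamp and its loader, 6 bind single-stranded DNA, finish the lagging strand or assemble nucleosomes, and 9 are E2F factors or other regulators of the G1/S transition. Organoids were grown from crypts of C57BL/6 mice aged 8 weeks, in medium with WNT3A, EGF, Noggin and R-spondin 1. Every library came from mice with floxed alleles of both atypical protein kinase C genes (Prkci f/f and Prkcz f/f) that also carry Villin-CreERT2, a Cre recombinase active only with a tamoxifen ligand and driven by the epithelial Villin promoter. At passage the organoids received 4-OH tamoxifen (4-OHT, 3 libraries, labelled as the double knockout) or the ethanol vehicle (3 libraries, labelled as wild type), and RNA was taken after 3 days. The labels list no 4-OHT-treated organoids without Cre or without the floxed alleles, so gene loss, Cre activity and 4-OHT itself cannot be told apart. Nothing in the labels says that the libraries of a group came from separate mice or cultures, so p-values measure the spread between these libraries, which may be technical.

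Before a chromosome can be copied, the origin recognition complex, CDC6 and CDT1 load the ring-shaped MCM2-MCM7 helicase onto DNA in G1, and geminin blocks CDT1 once S phase has begun. The kinases CDC7-DBF4 and cyclin E-CDK2 then allow CDC45 and the GINS complex to join the helicase, after which polymerase alpha-primase, delta and epsilon copy the strands with the help of the PCNA clamp. Many genes of this machinery are transcribed at the G1/S transition under E2F factors, which the retinoblastoma protein holds in check. In the colonic epithelium, S phase takes place in the stem and transit-amplifying cells of the crypt, and mature surface cells have left the cell cycle.

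The libraries held between 15804709 and 26957612 reads on genes. Prkcz, which encodes the zeta kinase, had 879.8, 904 and 954 normalized counts in the vehicle libraries and 287, 265 and 290.3 in the 4-OHT libraries, a log2 fold change of -1.70 (SE 0.08, adjusted p = 3.2e-12). Prkci, which encodes the iota kinase, fell less, from 3519.7 ± 86.9 to 3021 ± 132 normalized counts (SD, n = 3), with a log2 fold change of -0.22 (SE 0.05, adjusted p = 8.1e-04). These counts are of the whole gene, so reads outside the floxed part are included. All 10 colon epithelium markers had reads in every library, and their summed level was 13602 to 14013 RPM (reads scaled to the library total) in vehicle and 17541 to 18726 RPM in 4-OHT. The 9 markers of small intestine and Paneth cells summed to 13.2 to 21.2 RPM in vehicle and to 17.4, 52.1 and 45.5 in 4-OHT replicates 1, 2 and 3. The 3 plasma cell markers, with no read in any vehicle library, summed to 0.0519, 10.4 and 3.52 RPM in the same 4-OHT libraries. Smooth muscle markers (5) summed to at most 0.380 RPM in vehicle and to 0.415, 3.01 and 7.95 RPM in the 4-OHT libraries, and fibroblast markers (6) to at most 1.08 RPM in vehicle and to 0.415, 0.868 and 9.71 RPM in the same order, with Col1a2, Col3a1, Dcn and Lum at 0 reads in every vehicle library and in 4-OHT replicate 1. Leukocyte markers (5) summed to 9.17 to 11.4 RPM in vehicle and to 6.80 to 8.07 RPM in 4-OHT. Most of these reads were of Cd68 (116 to 299 per library), and no other leukocyte marker had more than 4 reads in a library. Endothelium markers (4) lay between 1.66 and 2.86 RPM in all libraries. Most of these reads were of Vwf (29 to 69 per library), and no other endothelium marker had more than 5. The part of these cell type differences in the results was not tested. Without 4-OHT replicates 2 and 3, the 49 replication and G1/S genes had a median log2 fold change of -0.52, beside -0.0016 over all tested rows. That fit leaves 1 treated library, assumes that it varies like the vehicle libraries, and does not test the part of the cell type differences.

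The replication and G1/S genes were lower after 4-OHT almost throughout. Of the 49 genes, 46 fell, none was called higher, and 3 (Orc2, Gins4 and Cdc25a) did not pass the test. Over all 13210 rows tested, 21.0% were called lower, 22.7% higher and 43.6% either way by the same test, limma-trend with an adjusted p-value below 0.05. All 49 members had a negative log2 fold change in the main fit, and edgeR and DESeq2 on the recovered reads also called 0 members higher. The median log2 fold change of the 49 genes was -0.59, with an interquartile range from -0.73 to -0.43, beside a median of -0.01 over all tested rows. A log2 fold change below -0.5 was reached by 32 of the members, against 9.83% of all rows, and one below -1 by 2 members, E2f8 and Cdc7, against 1.67% of all rows. In 48 of the 49 genes each of the 3 values after 4-OHT lay below each of the 3 vehicle values, a pattern that 25.3% of all rows showed, while 26.8% of all rows and no member showed the opposite one. Orc2 was the exception. Where the reads were scaled to the library total, 3789 rows in the whole table were lower and 2218 higher, against 2768 and 2997 with the deposited normalization, and the median of all rows was then -0.08. All 49 members were called lower on that scale.

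**Figure D1:**
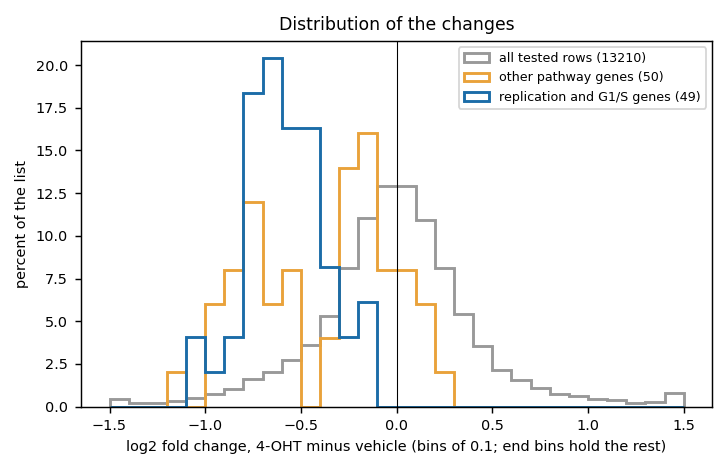
Distribution of log2 fold changes, 4-OHT against vehicle, for the 49 replication and G1/S genes beside 50 other pathway genes and all 13210 tested rows, as percent of each list in bins of 0.1. The members have a median of -0.59, and all 49 lie below 0, whereas the median of all rows is -0.01.

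The summed reads of the members show the same shift within each library. They made up 31.2, 32.1 and 33.6 of every 10000 reads in vehicle replicates 1, 2 and 3, and 21.5, 19.5 and 20.3 in 4-OHT replicates 1, 2 and 3. The groups did not overlap. In bulk RNA, fewer cells in S phase and less of these transcripts per cell cannot be told apart. Taken gene by gene as the log2 distance from the vehicle mean, the median over the 49 members was -0.52, -0.65 and -0.61 in the 3 4-OHT libraries, and -0.05, -0.01 and 0.06 in the 3 vehicle libraries. Every member was below its vehicle mean in each of the 4-OHT libraries. The median over all rows with a mean of at least 10 was -7.2e-05, 0.0019 and -0.0011 in 4-OHT replicates 1, 2 and 3. The share of all rows below their vehicle mean in each of these libraries was not counted. Replicate 1 of 4-OHT held the highest of the 3 values for 28 members, and replicate 2 the lowest for 25. Mki67, a proliferation marker outside the list, fell from 11357 ± 315 to 5636 ± 781 normalized counts (SD, n = 3), with a log2 fold change of -1.02 (SE 0.07, adjusted p = 6.5e-10).

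**Figure D2:**
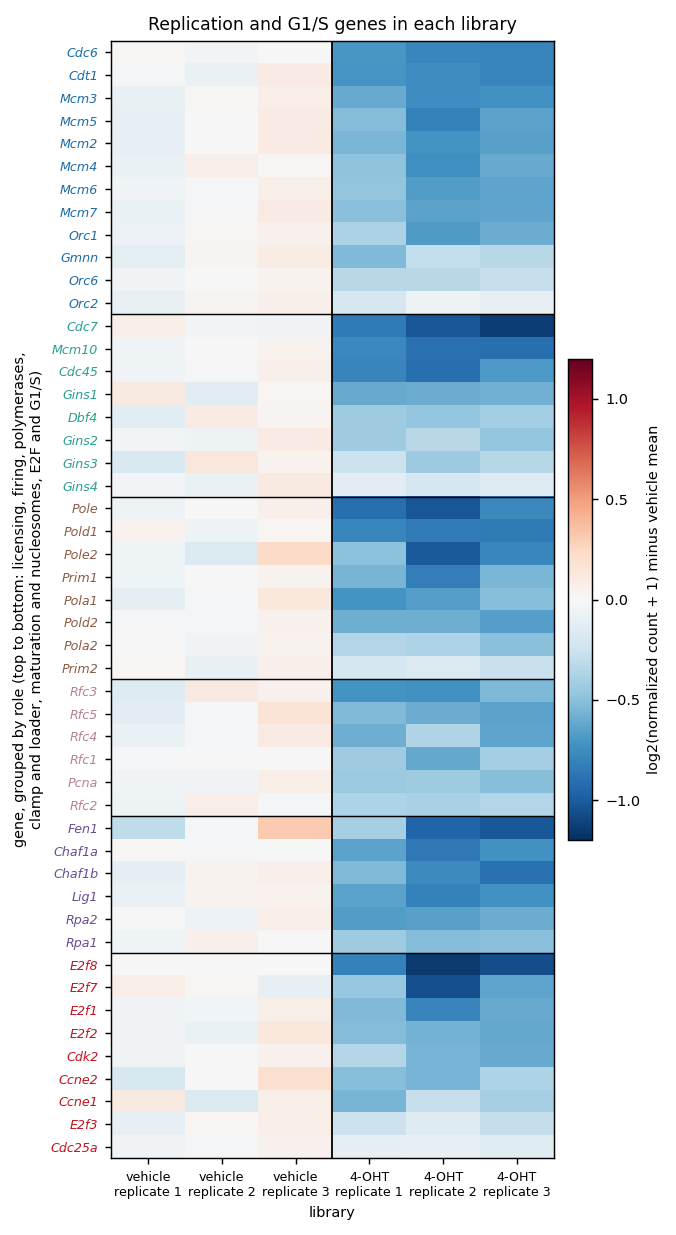
Log2 distance of each of the 49 genes from its vehicle mean in each of the 6 libraries, grouped by role. The 3 4-OHT columns are below the vehicle mean for every gene, with medians of -0.52, -0.65 and -0.61, beside -7.2e-05, 0.0019 and -0.0011 over all rows.

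Origin licensing genes fell in 11 of 12 cases, with a median log2 fold change of -0.60. The loaders had the largest changes of the group. Cdc6, whose product opens the way for helicase loading, had 879.8, 849.8 and 870.4 normalized counts in vehicle and 534, 502 and 497 after 4-OHT, a fall of 41.0% and a log2 fold change of -0.76 (SE 0.07, adjusted p = 2.2e-08). Cdt1, its partner in loading, had 1629, 1561 and 1764 in vehicle and 1010.4, 985 and 952 after 4-OHT, with a log2 fold change of -0.75 (SE 0.06, adjusted p = 5.3e-09). For both genes the 2 groups were far apart relative to the spread within them. Gmnn, which encodes the CDT1 inhibitor geminin, also fell, from 412 ± 30.9 to 315 ± 26.4 (SD, n = 3), by 23.5% (adjusted p = 0.0022).

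The subunits of the origin recognition complex were less uniform. Orc1, the subunit whose level follows the cell cycle, had 257, 275 and 279.7 normalized counts in vehicle and 208, 169 and 179 after 4-OHT (log2 fold change -0.55, SE 0.11, adjusted p = 4.2e-04). Orc6 had 433, 447 and 461 in vehicle and 354, 353 and 369 after 4-OHT, a smaller log2 fold change of -0.32 (SE 0.08, adjusted p = 0.0033). Orc2, a core subunit, had 471, 511 and 521 in vehicle and 434, 479 and 467 after 4-OHT. The groups overlapped for Orc2, and its log2 fold change of -0.12 had a 95% interval from -0.29 to 0.041 (adjusted p = 0.22). In the annotation, 29.8% of the exon bases of Orc2 and 10.8% of those of Orc1 lie opposite another gene, and whether the counting used strand is not given in the sources used here. The 3 subunits outside the list complete the complex: Orc3 fell slightly (log2 fold change -0.22, adjusted p = 0.012), Orc5 had a log2 fold change of -0.05 (adjusted p = 0.7), and Orc4 rose from 544 ± 21.6 to 635 ± 61.6 normalized counts (SD, n = 3). The rise of Orc4, by 0.22 on the log2 scale (SE 0.08, adjusted p = 0.03), lost its call in 7 of 17 alternative settings, including those without vehicle replicate 1 or 3 or 4-OHT replicate 2 or 3 (adjusted p from 0.051 to 0.71 over the 7).

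The 6 subunits of the MCM helicase fell by nearly the same proportion. Mcm2 had 3332, 3552 and 3818 normalized counts in vehicle and 2428, 2169 and 2271 after 4-OHT (log2 fold change -0.64, SE 0.06). Mcm3 had 3490.2, 3752 and 3925 in vehicle and 2442, 2223 and 2246 after 4-OHT (-0.69, SE 0.05). Mcm4 had 2069, 2296 and 2221 in vehicle and 1572, 1315 and 1440.0 after 4-OHT (-0.61, SE 0.06). In all 3 genes every 4-OHT value was below every vehicle value. Mcm5 had 3439, 3665 and 3924 in vehicle and 2556, 2092 and 2347 after 4-OHT (-0.66, SE 0.06). Mcm6 had 3616, 3658 and 3916 in vehicle and 2679.9, 2337 and 2408 after 4-OHT (-0.59, SE 0.05). Mcm7 had 4440.0, 4649.9 and 5034 in vehicle and 3317, 3020.5 and 3036 after 4-OHT (-0.59, SE 0.05). The groups were again separate, and the adjusted p-values of the 6 subunits ran from 3.9e-09 for Mcm3 to 1.7e-07 for Mcm4. Their log2 fold changes lay between -0.69 and -0.59, with an SD of 0.04 across the subunits, compared with 0.21 across all 49 members. Divided by all annotated exon bases of the gene, the vehicle level was highest for Mcm7 at 1064 normalized counts per kb and lowest for Mcm2 at 513. That length can exceed the length of the transcript made. It was longest for Mcm2, 6956 bases against 4426 for Mcm7, so the rank of Mcm2 may reflect the length used. After 4-OHT the same subunits had the highest and lowest level per kb, 706 and 329.

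**Figure D3:**
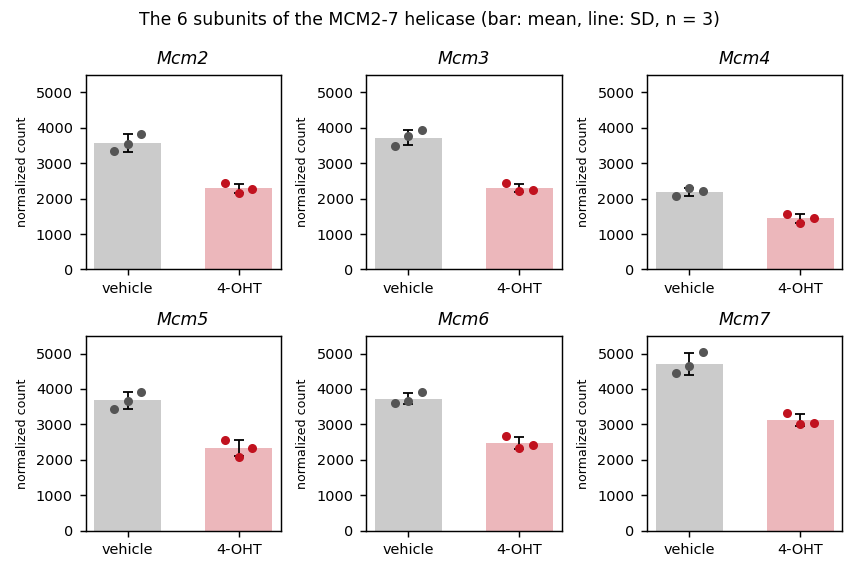
Normalized counts of the 6 MCM2-MCM7 helicase subunits in each vehicle and 4-OHT library, with the mean and SD (n = 3). In each subunit the 3 4-OHT values lie below the 3 vehicle values, as for Mcm7, with means of 4708 and 3125.

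The promoters of the members were read for the letters that E2F factors are known to bind. Many genes of this machinery are transcribed under E2F factors, so a high share of matches describes the list whether or not its genes changed. The windows run from 250 bases before to 50 bases after the transcription start in the RefSeq annotation of GRCm38.p6, and 40 of the 49 members had at least 1. The motif was any of TTTCCCGC, TTTCGCGC, TTTGCCGC and TTTGGCGC on either strand. It was present for 18 of 40 members (45.0%), 12 of 39 other genes of the pathway (30.8%) and 475 of all 10059 tested genes with a window (4.72%). Windows of members and of tested genes had a similar base composition, with a median of 61.3% and 60.7% G and C and of 24 and 20 CpG dinucleotides. Some genes have several windows, and among windows with 16 to 31 CpG dinucleotides, 14 of 25 windows of members (56.0%) and 286 of 5788 windows of other tested genes (4.94%) held the motif. CCAAT, the motif of NF-Y, was present for 65.0% of members and 43.2% of tested genes, and TTTGAA, the cell cycle genes homology region, for 25.0% and 14.4%. In the licensing genes 7 of 10 genes with a window held the E2F letters, in the E2F and G1/S genes 5 of 8, in the polymerases 3 of 6, and in the firing genes, the clamp and loader and the maturation genes 1 of 5, 1 of 5 and 1 of 6. The following stretches of 30 bases, 5′ to 3′ on the strand of the gene, show a match in capitals for 10 of the 18 members with one, chosen from helicase subunits and their loaders, the clamp loader, polymerase delta and the E2F factors.
Orc1: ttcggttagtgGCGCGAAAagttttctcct
Cdc6: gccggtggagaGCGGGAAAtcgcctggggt
Cdt1: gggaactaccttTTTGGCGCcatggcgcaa
Mcm3: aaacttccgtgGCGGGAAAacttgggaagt
Mcm5: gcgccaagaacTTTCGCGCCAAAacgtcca
Mcm6: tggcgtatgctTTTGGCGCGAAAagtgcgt
Mcm7: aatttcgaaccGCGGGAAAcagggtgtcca
Rfc3: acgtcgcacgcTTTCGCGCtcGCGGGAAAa
Pold1: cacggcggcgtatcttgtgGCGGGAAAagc
E2f7: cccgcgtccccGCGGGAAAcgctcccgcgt

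In GRCm38.p6 these stretches lie on the plus strand at chr4:108579416-108579445 (Orc1), chr11:98908002-98908031 (Cdc6), chr8:122568035-122568064 (Cdt1), chr8:75109345-75109374 (Mcm5) and chr10:110745230-110745259 (E2f7). On the minus strand they lie at chr1:20820275-20820304 (Mcm3), chr1:128359797-128359826 (Mcm6), chr5:138172030-138172059 (Mcm7), chr5:151651200-151651229 (Rfc3) and chr7:44548766-44548795 (Pold1). In Mcm5 and Mcm6 a pair of matches on opposite strands shares bases, so that the capitals read as 1 run, and Rfc3 has a match on each strand a few bases apart. Mcm6 held 3 matches, the most of any member with a window, and Mcm3, Mcm5, Mcm7 and Rfc3 held 2 each. Of the 24 matches in members, 15 began before the RefSeq start site and 9 at or after it. The median log2 fold change was -0.64 for the 18 members with a match, -0.62 for the 22 without one and -0.41 for the 9 without a window. Without a match means none in the windows read, and annotations can place the start elsewhere. For E2f1, on the minus strand, the gene start in GENCODE is chr2:154569892, outside its window at chr2:154569377-154569676. Among members with a match, the GENCODE start lay outside the matched window for Cdc6 (chr11:98907801), Mcm7 (chr5:138172422), Lig1 (chr7:13277283), Mcm5 (chr8:75109569) and E2f2 (chr4:136172394). By that start the matches of Cdc6, Mcm7 and Lig1 all lie after it, so the split by start site depends on the annotation. Of the 4 members with the lowest fold changes, E2f8, Cdc7 and Mcm10 had a window but no match and Pole had no window, and the lowest value among members with a match was the -0.82 of Pold1. Of the helicase subunits, Mcm2 had a window without a match and Mcm4 no window. A match is a run of letters, and binding was not measured here. The 250 bases before the start of Mcm6 (chr1:128359706-128359955, minus strand) are given as the promoter with most matches, all in capitals.
Mcm6 promoter: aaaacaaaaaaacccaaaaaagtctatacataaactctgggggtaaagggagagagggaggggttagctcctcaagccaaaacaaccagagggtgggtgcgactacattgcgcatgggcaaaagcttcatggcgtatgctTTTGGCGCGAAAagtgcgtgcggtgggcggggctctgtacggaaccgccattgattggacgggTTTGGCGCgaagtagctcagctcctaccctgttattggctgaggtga

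**Figure D4:**
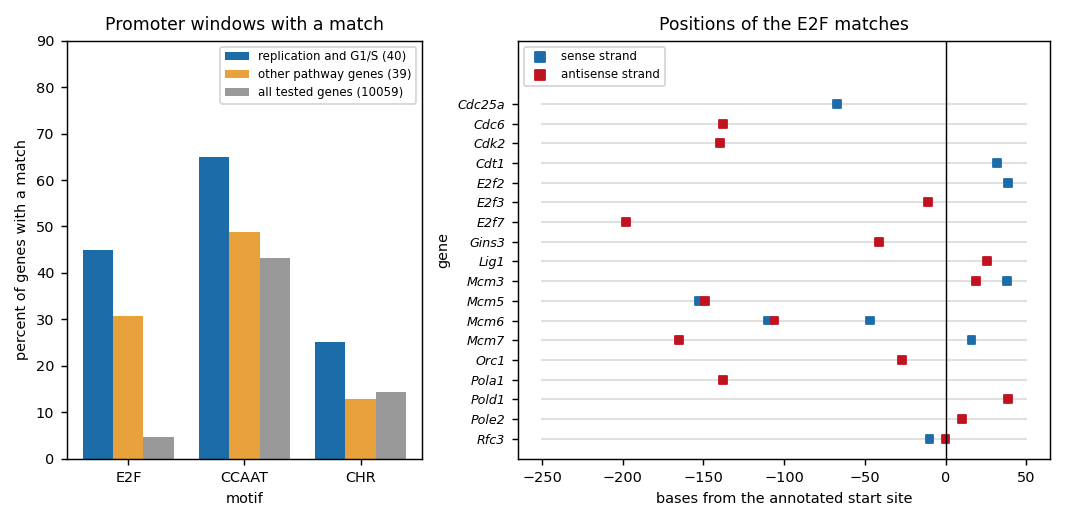
Left, percent of genes with a match to the E2F, CCAAT and TTTGAA (CHR) letters in the promoter window, for members, other pathway genes and all tested genes. Right, position of each E2F match of the members in bases from the annotated start site, by strand. The E2F letters were found for 45.0% of members with a window and 4.72% of tested genes, and 15 of the 24 matches began before the start site.

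Of the 8 origin firing genes, 7 fell, with a median log2 fold change of -0.51 and a range from -1.0 to -0.16. Cdc7, the kinase that phosphorylates the loaded helicase, had 328, 307 and 305 normalized counts in vehicle and 174, 153 and 142 after 4-OHT, a fall of 50.1% (log2 fold change -1.0, SE 0.11, adjusted p = 4.0e-07). Dbf4, its activating subunit, fell from 1230.2 ± 95.6 to 908 ± 14 (SD, n = 3), by 26.1% (adjusted p = 1.4e-05). Mcm10, which is needed to activate the helicase, had 1055, 1102 and 1132 in vehicle and 642, 589.8 and 586 after 4-OHT (log2 fold change -0.86, SE 0.06, adjusted p = 3.1e-09). These 3 genes had 4-OHT values well below the vehicle values. Cdc45, the helicase cofactor, fell from 717 ± 27.9 to 413 ± 31.8 (SD, n = 3), by 42.4% (adjusted p = 7.7e-08).

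The 4 subunits of GINS, which joins CDC45 and the MCM ring, differed in the size of their change. Gins1 fell by 33.9% (log2 fold change -0.59, SE 0.10) and Gins2 by 25.0% (-0.41, SE 0.08). Gins3 had 139, 173 and 162 normalized counts in vehicle and 131, 116 and 124 after 4-OHT (-0.35, SE 0.13, adjusted p = 0.043), a call that was lost in 9 of 17 alternative settings, the replicate block and those without vehicle replicate 2 or 3 or 4-OHT replicate 2 or 3 among them (adjusted p from 0.051 to 0.31). Gins4 had 686, 661 and 755 in vehicle and 641, 608 and 629 after 4-OHT. The Gins4 groups did not overlap, but the change did not pass the test, with a log2 fold change of -0.16 and a 95% interval from -0.31 to -0.013 (adjusted p = 0.074). For Gins2, 67.3% of the exon bases lie opposite exons of Gse1, whose own log2 fold change was -0.18.

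All 8 polymerase and primase genes fell, with a median log2 fold change of -0.64. The catalytic subunits of the 2 replicative polymerases changed most. Pole, the catalytic subunit of the leading-strand polymerase epsilon, had 1085, 1126 and 1182 normalized counts in vehicle and 604, 554 and 661 after 4-OHT (log2 fold change -0.90, SE 0.07, adjusted p = 5.1e-09). Pold1, the catalytic subunit of polymerase delta, had 2083, 1937 and 2053 in vehicle and 1179, 1129 and 1122 after 4-OHT (-0.82, SE 0.05, adjusted p = 3.8e-10). Their partners Pole2 and Pold2 fell by 40.9% and 34.5%. In polymerase alpha-primase, which makes the primers, the catalytic subunits Pola1 and Prim1 fell by 35.4% and 35.9% and the accessory subunits by less. Pola2 had 1415, 1379.7 and 1459 in vehicle and 1114, 1096 and 1001 after 4-OHT (-0.41, SE 0.06, adjusted p = 1.1e-05). Prim2, the regulatory subunit of primase, had 538, 497 and 553 in vehicle and 458, 467 and 441 after 4-OHT (-0.22, SE 0.08, adjusted p = 0.028). The groups were separate for both accessory subunits, and the call of Prim2 was lost in 6 of 17 alternative settings, including those without vehicle replicate 1 or 3 or 4-OHT replicate 3 (adjusted p from 0.053 to 0.15).

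The clamp and its loader fell in 6 of 6 cases, with a median log2 fold change of -0.51. Pcna, the sliding clamp, had 2458, 2461 and 2666 normalized counts in vehicle and 1859.6, 1875 and 1776 after 4-OHT (log2 fold change -0.46, SE 0.05, adjusted p = 4.6e-07). Among the loader subunits, Rfc3 had 570.0, 682 and 655 in vehicle and 385, 384 and 435 after 4-OHT (-0.66, SE 0.08, adjusted p = 2.9e-06). Rfc5 had 939, 1017 and 1159.8 in vehicle and 716, 683 and 663 after 4-OHT (-0.59, SE 0.07, adjusted p = 2.0e-06). All 4-OHT values of these genes lay below the vehicle values. Rfc2 changed least, with 1174, 1298 and 1206 in vehicle and 949, 933 and 959.6 after 4-OHT (-0.37, SE 0.06, adjusted p = 3.7e-05). Rfc1, the large subunit, and Rfc4 fell by 28.5% and 30.6%. Pcna has 2 annotated pseudogenes, with which reads can be shared, and 10.7% of the exon bases of Rfc5 lie opposite Wsb2, which rose (log2 fold change 0.40, adjusted p = 1.1e-06). For Rfc2 and Rfc4, 15.1% and 12.7% of the exon bases lie opposite other genes. The gene opposite Rfc4 is Eif4a2, with means of 4679 normalized counts in vehicle and 4291 after 4-OHT, against 457 and 317 for Rfc4. Whether reads of Eif4a2 entered the count of Rfc4 was not tested.

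The 6 genes of single-strand binding, maturation and nucleosome assembly all fell, with the lowest median of the 6 role groups, -0.73. Fen1, the nuclease that trims Okazaki fragments, had the lowest counts of the members, with 64.4, 78.7 and 99.3 normalized counts in vehicle and 59.9, 40.4 and 38.7 after 4-OHT. Its log2 fold change of -0.79 had an SE of 0.22 (adjusted p = 0.0062), and the call was lost without vehicle replicate 3 or without 4-OHT replicates 2 and 3 together (adjusted p of 0.051 and 0.28). Of its exon bases, 78.8% lie opposite an annotated antisense gene, and whether this affects its low count was not tested. Lig1, the ligase that seals the fragments, fell from 3509.8 ± 161 to 2121 ± 122 (SD, n = 3), by 39.6% (adjusted p = 1.8e-09). Chaf1a, the large subunit of the chromatin assembly factor CAF-1, had 1635, 1599 and 1625 in vehicle and 1035, 890.4 and 979 after 4-OHT (-0.74, SE 0.06, adjusted p = 8.0e-09). Chaf1b fell by 39.6%, close to the 40.2% of Chaf1a. In Chaf1a, 52.5% of the exon bases lie opposite Ubxn6, which had a log2 fold change of 0.13 (adjusted p = 0.32). Of the single-strand binding protein RPA, Rpa1 had 1549.7, 1671 and 1600.4 in vehicle and 1191, 1122 and 1137 after 4-OHT (-0.48, SE 0.06, adjusted p = 6.7e-07). Rpa2 had 756, 726 and 801 in vehicle and 477, 484 and 504 after 4-OHT (-0.64, SE 0.07, adjusted p = 4.3e-07). Neither gene had a 4-OHT value within its vehicle range.

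**Figure D5:**
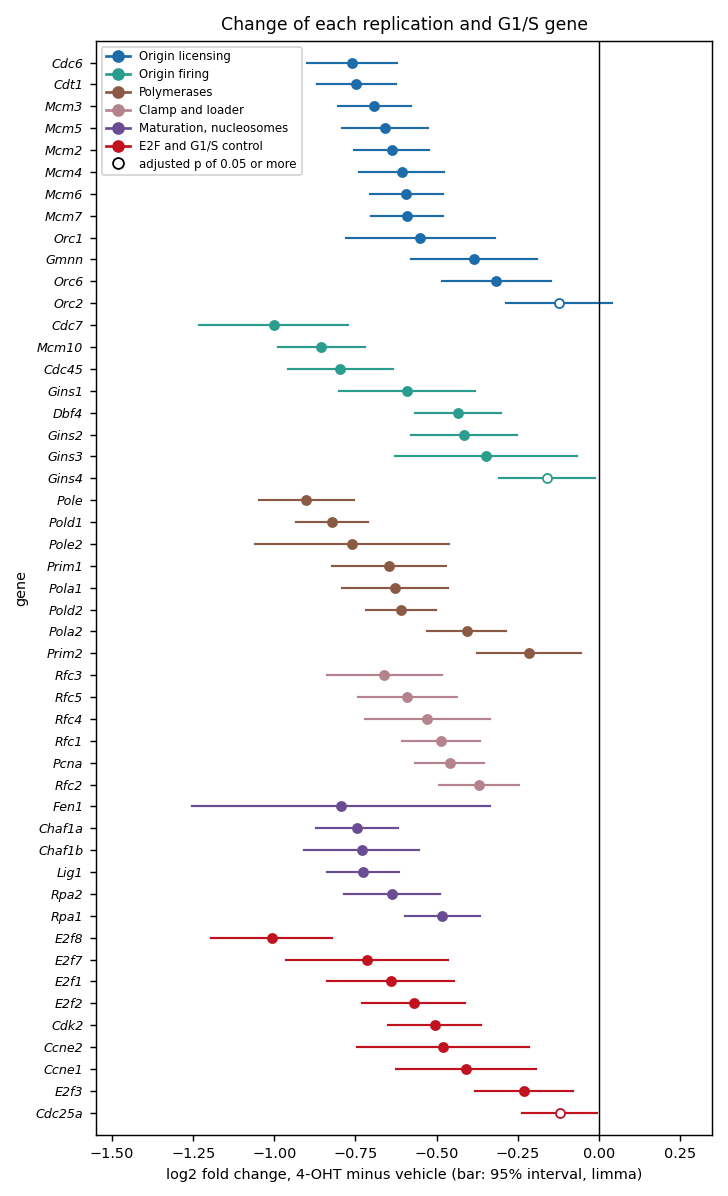
Log2 fold change of each of the 49 genes, 4-OHT against vehicle, with its 95% interval from the limma fit, ordered within the 6 role groups. E2f8 and Cdc7 lie lowest at -1.01 and -1.0, and the intervals of Orc2, Gins4 and Cdc25a lie nearest to 0.

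Among the 9 E2F and G1/S regulators, 8 fell. The atypical repressors E2f7 and E2f8, which are themselves E2F targets, changed most. E2f8 had 633, 629.9 and 627 normalized counts in vehicle and 359.5, 283 and 301 after 4-OHT, a fall of 50.1% and the lowest log2 fold change of the list, -1.01 (SE 0.09, adjusted p = 2.4e-08). E2f7 had 460.0, 441 and 407 in vehicle and 318, 208 and 280.0 after 4-OHT (-0.71, SE 0.12, adjusted p = 6.8e-05), with a wider spread after 4-OHT than in vehicle. In E2f8, 11.2% of the exon bases lie opposite another annotated gene. The activators fell by unequal amounts. E2f1 had 407, 409 and 439 in vehicle and 289, 242 and 274 after 4-OHT (-0.64, SE 0.09, adjusted p = 1.4e-05). E2f2 had 663, 645 and 747 in vehicle and 475, 460.2 and 445 after 4-OHT (-0.57, SE 0.08, adjusted p = 4.7e-06). E2f3 had 642, 696 and 724 in vehicle and 574, 618 and 565 after 4-OHT (-0.23, SE 0.07, adjusted p = 0.014). The groups were separate for all 3 activators, but the call of E2f3 was lost without vehicle replicate 2 or 3, without 4-OHT replicate 3 and without 4-OHT replicates 2 and 3 together (adjusted p from 0.052 to 0.065).

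The cyclin E-CDK2 kinase, which drives entry into S phase, fell in each of its subunits. Ccne1 had 386, 319 and 378 normalized counts in vehicle and 244, 297 and 273 after 4-OHT (log2 fold change -0.41, SE 0.10, adjusted p = 0.0032). Ccne2 had 181, 208 and 236 in vehicle and 145, 139.9 and 161 after 4-OHT (-0.48, SE 0.13, adjusted p = 0.0043). Cdk2 had 1113, 1145 and 1191 in vehicle and 902, 778 and 754 after 4-OHT (-0.51, SE 0.07, adjusted p = 5.9e-06). Every 4-OHT value of the 3 genes was below the vehicle values. For Ccne2, 17.4% of the exon bases lie opposite Ints8. Cdc25a, the phosphatase that activates CDK2, had 1219, 1243 and 1294 in vehicle and 1157, 1169 and 1128 after 4-OHT. The groups were separate but close, and the log2 fold change of -0.12 (SE 0.06, 95% interval -0.24 to -0.0051) did not pass the test (adjusted p = 0.086).

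Ratios between genes that act together were compared for 7 pairs. The ratio of Cdt1 to its inhibitor Gmnn was 4.31, 3.72 and 4.02 in vehicle and 3.54, 2.94 and 2.92 after 4-OHT. The ratio of Cdc7 to Dbf4 was 0.292, 0.234 and 0.243 in vehicle and 0.190, 0.172 and 0.155 after 4-OHT. Mcm2 over Pcna was 1.36, 1.44 and 1.43 in vehicle and 1.31, 1.16 and 1.28 after 4-OHT. In these 3 pairs every ratio after 4-OHT was below every vehicle ratio, which gives the smallest p that 3 against 3 libraries allow in a two-sided exact permutation test, 0.1 (0.23 adjusted over the 7 pairs), so none could pass 0.05. Ccne1 over Cdk2 (mean 0.314 in vehicle and 0.338 after 4-OHT), E2f1 over E2f7 (0.964 and 1.02), Chaf1a over Chaf1b (1.99 and 1.98) and Pold1 over Pole (1.79 and 1.90) had overlapping groups, with exact permutation p-values from 0.5 to 0.8. Across the 49 members the vehicle level per kb and the log2 fold change had a Pearson's r of 0.01 and a Spearman's rho of 0.01, given as a description over 49 genes measured in the same libraries.

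A further 50 genes of the same pathway were examined. Of these, 32 were called lower, 1 higher and 17 neither, where 21.0% of all tested rows were called lower and 22.7% higher. Their median log2 fold change was -0.28, beside -0.59 for the members. Other replication genes had 21 of 33 lower (median -0.28), and other genes of the RB-E2F network 11 of 17 (median -0.24). Ticrr, which encodes the origin firing factor treslin, fell by more than any member, with 683, 646 and 697 normalized counts in vehicle and 326, 260.2 and 306 after 4-OHT (log2 fold change -1.18, SE 0.09, adjusted p = 2.7e-09). Timeless, a fork protection factor, had 886, 889.5 and 983 in vehicle and 512, 377 and 504 after 4-OHT (-1.0, SE 0.09, adjusted p = 6.5e-08). Recql4, a helicase of origin firing, had 342, 278 and 346 in vehicle and 158, 147 and 179.9 after 4-OHT (-0.99, SE 0.12, adjusted p = 1.1e-06). In all 3 genes the groups were well apart. Wdhd1, which ties polymerase alpha to the helicase, had 682, 627 and 689 in vehicle and 376, 317 and 334 after 4-OHT (-0.96, SE 0.08, adjusted p = 1.7e-08). Orc4, given above with its complex, was the 1 gene called higher.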

How the data were processed

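RNA from 6 colonic organoid libraries was analysed, 3 with vehicle and 3 with 4-OHT, grouped by the treatment label. The authors deposited normalized counts, a signal in which the reads on each gene are divided by 1 size factor per library. Their processing notes name STAR, DESeq2 and GRCm39, with no versions. The deposited values were whole multiples of 1 read, within 0.1 reads, for 100% of values, so reads were recovered. The sources used here include no paper that describes this experiment.

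The 2 groups were tested on log2(normalized count + 1) by limma-trend in limma 3.58.1 under R 4.3.3. Rows needed a mean of 10 or more, which left 13210, all used for the Benjamini-Hochberg adjustment, and an adjusted p under 0.05 was a call. A fold change on this scale understates the change of low genes. Errors are SD, or the SE of the fit. edgeR 4.0.16 and DESeq2 1.42.0 on recovered reads, pseudocounts of 0.1 and 10, other filters (none, or a mean of 50), other scalings, the replicate block and libraries left out were alternatives. Fits were tested on simulated data. Exon lengths, overlaps and promoters came from GRCm38 annotations (GENCODE vM21, RefSeq GRCm38.p6), another build than that of the authors, and were joined by symbol. An exon length was the union of all annotated exons of a gene, not the length of a single transcript. Members and lists were chosen with earlier results of these data known. Values are given for the 2 lowest and 2 highest fold changes of each role group, all MCM2-MCM7, E2F and cyclin E genes, members not passing the test, and the 4 lowest and 4 highest other pathway genes past the threshold, of which only 1 was higher. Other genes are named to complete a complex or pair, as overlapping genes or, for Mki67, as a proliferation marker, and were chosen after their values were seen. Promoter motifs and ratios were also added later. Same-numbered vehicle and 4-OHT libraries showed no shared deviations, so the main fit has no block.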

Additional observations from a re-analysis of the deposited data

How the results depend on the processing

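Across 17 alternative settings between 42 and 49 of the 49 replication and G1/S genes were called lower and 0 higher. The median log2 fold change of the members, -0.59 as reported, was -0.67 with scaling to the library total and -0.52 without 4-OHT replicates 2 and 3 together, a fit that assumes the lone 4-OHT library to vary like the vehicle libraries. Leaving out 1 library at a time gave 42 to 46 members lower, 0 higher, and medians from -0.63 to -0.56. Over all tested rows these fits called from 2311 of 13200 (without vehicle replicate 1) to 2729 of 13228 (without 4-OHT replicate 1) lower. Other pathway genes were called lower in 28 to 31 cases without 1 library and in 26 to 38 over all settings. The 1 of them called higher, Orc4, became 0 with scaling to the library total, with DESeq2 and without 4-OHT replicates 2 and 3, and 0 to 2 were higher without 1 library. The libraries share replicate numbers, but the correlations of their deviations were -0.01, 0.03 and -0.02 for the same number, so the numbers show no pairing. With the replicate block 45 members and 33 other genes were lower, and the median was -0.59. Of 833 values of single members over the settings, 809 kept the direction and the side of the threshold, 21 no longer passed (Gins3, Prim2, E2f3 and Fen1) and 3 newly passed, Orc2 (-0.20), Gins4 (-0.23) and Cdc25a (-0.19) with library total scaling. None reversed. The causes were not tested. Fen1 had the fewest reads of the members, 34 in its lowest library.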
